A study of Mus musculus with 42 samples.

Results

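The 10 genes described here, of the IGF axis and of insulin signalling, were followed through mouse kidneys that lack Tsc2, Tfeb or both. They were taken by name from the 54532 genes of the deposited tables: the ligand Igf1, the receptors Igf1r and Insr, the binding proteins Igfbp1, Igfbp3, Igfbp4, Igfbp5 and Igfbp7, and the adaptors Irs1 and Irs2. All 10 were present in the tables of the 3 cohorts and passed the filter on low counts in each of them. Whole-kidney RNA of 42 mice on a C57BL/6 background was sequenced, with 3 mice in each of 14 groups. The CaggCreERT2 cohort was taken at P30 and held control, Tsc2 KO, Tfeb KO and double knockout (DKO, Tsc2 and Tfeb) mice, all exposed as pups to tamoxifen through the milk of treated mothers. This Cre acts in the whole body, and the controls, labelled wild type, are given by the study's text as Cre-positive mice without floxed Tsc2. The KspCre cohort was taken at P50 and held the same 4 genotypes; its Cre is driven by the cadherin 16 promoter in tubular epithelium, and its controls are Cre-negative. The drug cohort held control, Tsc2 KO and DKO mice of the KspCre line, taken at P50 as well, each given either vehicle or rapamycin, an inhibitor of mTORC1, as 11 intraperitoneal injections of 1 mg/kg, given at 3 a week.

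Insulin and IGF1 bind related receptor tyrosine kinases, which phosphorylate the adaptors Irs1 and Irs2, and these recruit PI3K and so turn on Akt. Akt inhibits the TSC complex, of which the Tsc2 protein is part, and thereby frees mTORC1, while active mTORC1 is known to dampen signalling through the adaptors. The IGF-binding proteins carry IGFs in blood and tissue and set how much reaches the receptors, and FoxO transcription factors, which Akt keeps out of the nucleus, are known to drive Igfbp1, Irs2 and Insr. In the kidney, insulin and IGF signalling is known for its part in growth, salt transport and glucose production by the proximal tubule.

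A RefSeq table of build GRCm38.p6 gives 250 bases before and 50 after each start site. The promoters of 9 of the 10 genes, all but Insr, were matched in it by symbol. They were searched on both strands for the E-box CACGTG and the M-box TCATGTG, both bound by Tfeb and its relatives, for the FoxO core GTAAACA and for the insulin response element CAAAACA. Of 32851 promoters of this length, the E-box was in 7.15%, the M-box in 3.77%, the FoxO core in 3.65% and the insulin response element in 6.28%. Igfbp1, Irs1 and Irs2 were the members with any of these letters in this window, and the 130 bases before their start sites are shown for that reason, read 5′ to 3′ on the gene's strand, with the matched letters in capitals.
Igfbp1: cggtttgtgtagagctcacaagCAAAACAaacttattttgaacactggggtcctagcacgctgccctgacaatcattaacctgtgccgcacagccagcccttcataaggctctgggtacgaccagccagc
Irs1: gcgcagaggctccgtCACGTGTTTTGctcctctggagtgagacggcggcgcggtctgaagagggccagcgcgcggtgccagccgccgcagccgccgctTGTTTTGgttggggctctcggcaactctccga
Irs2: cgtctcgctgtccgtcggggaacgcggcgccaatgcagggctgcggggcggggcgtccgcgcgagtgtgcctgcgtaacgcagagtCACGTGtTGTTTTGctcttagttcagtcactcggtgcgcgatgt
The Igfbp1 stretch lies at chr11:7197657-7197786 on the plus strand and holds an insulin response element that starts at position -108 from the start site. The Irs1 stretch lies at chr1:82291440-82291569 on the minus strand and holds an E-box at position -115 and 2 insulin response elements in the reverse orientation, at positions -111 and -32, the first of which shares bases with the E-box. The Irs2 stretch lies at chr8:11008930-11009059 on the minus strand and holds an E-box at position -44 and a reverse insulin response element at position -37, next to it. The start site used for Irs2 lies outside the coordinates of the gene as counted, which end at 11008458. A match of letters is a description and does not show that a factor binds there.

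Reads counted on genes came to 14926050 to 22807605 per library over the 3 cohorts, so that the 10 genes were covered by 66 to 56431 reads each in a library. Tsc2 was lower in the Tsc2 KO than in the control libraries of every cohort, for example at 3.80 to 4.47 against 8.59 to 9.81 FPKM (fragments scaled to gene length and library size, a level per length) with vehicle in the drug cohort. Its own level was higher again, without overlap with Tsc2 KO vehicle mice, in Tsc2 KO rapamycin (5.06 to 6.50 FPKM, a log2 fold change of 0.49, adjusted p = 0.00199) and in DKO vehicle mice (5.53 to 6.41 FPKM, 0.58, adjusted p = 0.000843). Tfeb was lower in Tfeb KO than in control libraries, at 2.73 to 3.73 against 4.57 to 8.02 FPKM in the CaggCreERT2 and 4.32 to 5.25 against 5.85 to 6.24 in the KspCre cohort, and at 1.99 to 4.09 in the DKO libraries of these 2 cohorts. The log2 fold changes of Tfeb in Tfeb KO against control, -0.80 (adjusted p = 0.394) and -0.33 (adjusted p = 0.627), were not called. In KspCre DKO against Tsc2 KO mice Tfeb was not called either (-0.48; adjusted p = 0.360). Those groups overlapped, at 2.65 to 4.09 against 3.66 to 6.12 FPKM. DKO against Tsc2 KO was called lower in the CaggCreERT2 cohort (-1.48; adjusted p = 0.00325) and with vehicle in the drug cohort (-1.07; adjusted p = 0.000668). In the CaggCreERT2 cohort the names of 4 libraries conflict between the count and FPKM tables, and the names of the FPKM table are used. In 1 library each of Tfeb KO and DKO the conflict changes the genotype, and Tsc2 had 9.06 to 10.2 FPKM in the Tfeb KO and 4.82 to 5.64 in the DKO group with the names used, so that the count table's names put a library of the other group's Tsc2 level into each. By their Xist and Y-linked reads the CaggCreERT2 controls were 3 males, against 1 male among the 3 Tsc2 KO mice, 2 among the 3 DKO mice and 0 among the 3 Tfeb KO mice, while the other cohorts held females. In the drug cohort 3 libraries held transcripts of adrenal cortex, the gland next to the kidney, at a summed 5 markers of 1323 FPKM in Tsc2 KO vehicle 1, 302 in DKO vehicle 1 and 4259 in DKO vehicle 2, against 50.8 in Tsc2 KO vehicle 2 and 1.07 to 1.93 in the other 14 libraries. In the CaggCreERT2 cohort these 5 markers reached 271 FPKM in the Tfeb KO group, against 0.968 to 2.08 in the other groups there. The 5 liver markers reached 155 FPKM in that Tfeb KO group, against 2.63 to 24.1 in the other CaggCreERT2 groups. Markers of resident cells moved with Tsc2 as well: in the drug cohort the 6 proximal tubule markers summed to 2077 to 2451 FPKM in control vehicle, 442 to 696 in Tsc2 KO vehicle and 2010 to 2203 in Tsc2 KO rapamycin, and the 8 macrophage markers to 47.2 to 63.7, 96.4 to 190 and 43.7 to 93.6 FPKM, with no marker of either list at 0. Podocyte markers fell with loss of Tsc2 in 5 of 5, 5 of 5 and 4 of 5 cases in the CaggCreERT2, KspCre and vehicle-treated cohorts, those of thick limb and distal convoluted tubule in 4 of 5, 3 of 5 and 4 of 5, and those of collecting duct principal cells in 4 of 5, 4 of 5 and 2 of 5. In Tsc2 KO mice rapamycin raised 4 of 5, 4 of 5 and 3 of 5 markers of these lists, and DKO vehicle mice had the same numbers higher than Tsc2 KO vehicle mice. The summed podocyte markers were at 95.6 to 125 FPKM in control vehicle, 25.4 to 32.0 in Tsc2 KO vehicle and 37.2 to 101 in Tsc2 KO rapamycin mice, whereas those of the thick limb list overlapped between control (1389 to 1854) and Tsc2 KO vehicle mice (1011 to 1937). In the untreated KspCre mice the thick limb sum was higher in Tsc2 KO (1997 to 2199 FPKM) than in control mice (1561 to 1706). It was lower in the CaggCreERT2 mice, at 776 to 987 against 1394 to 1721 FPKM. In the KspCre cohort 1 library stood apart, DKO 1, whose macrophage markers summed to 737 FPKM against 69.0 and 95.4 in the other 2 DKO libraries. In whole-kidney RNA, fewer cells of a type and less RNA per cell cannot be told apart. The part of sex, adrenal or liver tissue, cell makeup and Tsc2 level in the differences here was not tested beyond the values given.

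Igfbp7 had the highest level of the 10 in each of the 14 groups, and the order of the others differed between groups. In vehicle-treated controls the order by mean FPKM was Igfbp7 at 1274 ± 138 (SD, n = 3), Igfbp4 at 256 ± 15.7, Igfbp5 at 92.4 ± 35.5, Igfbp3 at 56.4 ± 18.9, Igfbp1 at 23.6 ± 7.71, Igf1r at 13.9 ± 0.830, Irs2 at 13.0 ± 3.80, Insr at 11.1 ± 1.18, Igf1 at 2.27 ± 0.356 and Irs1 at 2.13 ± 0.363. In that order Igfbp5 and Igfbp3, Igf1r and Irs2, Irs2 and Insr, and Igf1 and Irs1 overlapped in their single libraries, whereas the other neighbours did not. Vehicle-treated Tsc2 KO kidneys had another order near the top, with Igfbp5 at 321 ± 140 FPKM above Igfbp4 at 90.9 ± 17.4, and no library of one overlapping those of the other. The 3 cohorts were tabulated separately, so levels are compared within a cohort only.

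**Figure D1:**
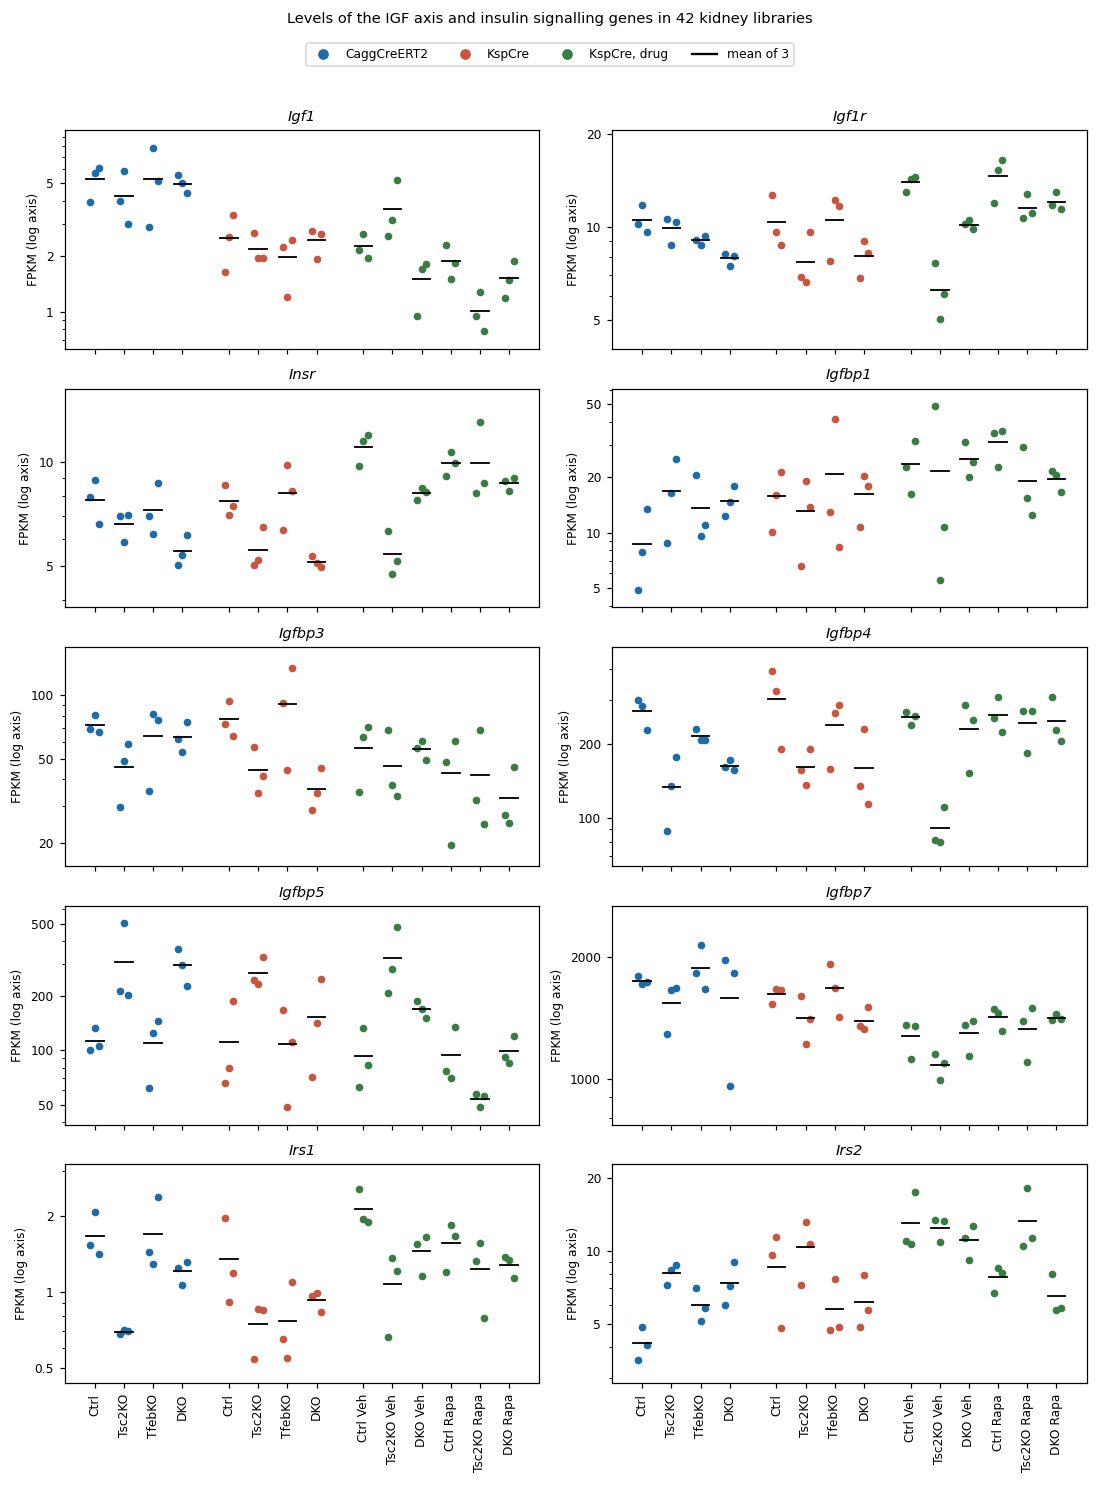
FPKM on a log axis of each of the 10 genes in 42 kidney libraries, one point per mouse, with groups along the x axis and a black line at the mean of 3 mice. Within the drug cohort, Igfbp4 is lowest and Igfbp5 highest in the Tsc2 KO vehicle mice, while Igfbp7 stays between 961 and 2143 FPKM in all libraries of the 3 cohorts.

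The first comparison asked which of the genes differ in kidneys without Tsc2. Igfbp4 and Irs1 fell and Igfbp5 rose on loss of Tsc2 both in the CaggCreERT2 and in the vehicle-treated KspCre mice, Irs2 rose in the CaggCreERT2 mice, and Igf1r and Insr fell in the vehicle-treated KspCre mice. In the CaggCreERT2 cohort 2 of 10 members rose and 2 fell by edgeR's quasi-likelihood test, with the threshold at an adjusted p of 0.05, which 29% of all tested genes passed (15.6% higher, 13.4% lower). In the drug cohort 1 of 10 rose and 4 fell, where 38.3% of genes passed (19.4% higher, 18.9% lower). In the untreated KspCre cohort edgeR called 0 of 10, where 13.8% of genes passed, while 5 of 10 had an unadjusted p under 0.05 (27.5% of genes) and DESeq2 called 2, Igfbp4 and Insr (18.8% of genes). The median log2 fold change of the 10 was -0.14 in the CaggCreERT2, -0.26 in the drug and -0.35 in the untreated KspCre cohort, and that of all tested genes 0.0018, 0.0091 and -0.013. The FPKM of Tsc2 KO and control libraries did not overlap for 6 of 10 members in the CaggCreERT2 cohort (44.2% of genes). In the untreated KspCre and the drug cohort this held for 5 of 10 each (37.4% and 47.5% of genes). A lack of overlap is therefore common among all genes and is not particular to the members. Differences between the cohorts were not tested.

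**Figure D2:**
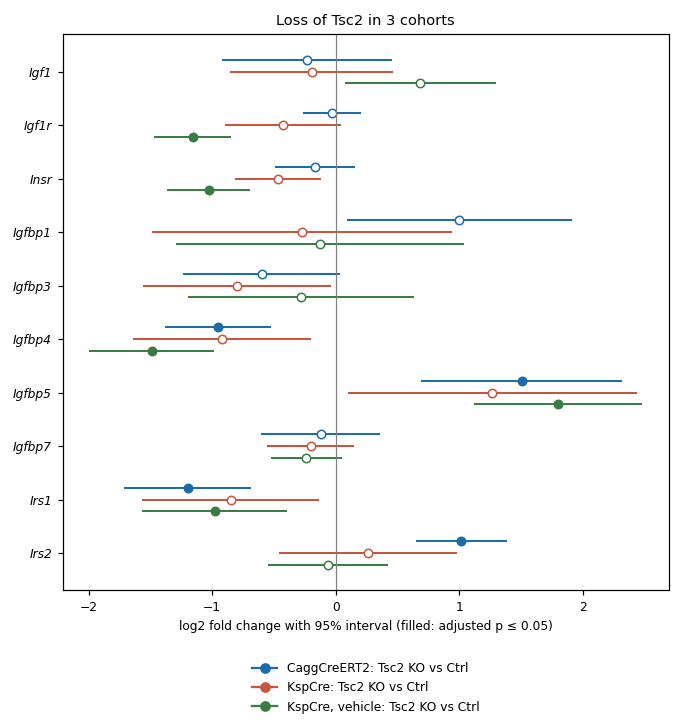
Log2 fold change of each gene in Tsc2 KO against control kidneys, with its 95% interval, in the CaggCreERT2, KspCre and vehicle-treated KspCre cohorts; filled points have an adjusted p of 0.05 or lower. Igfbp5 lies right of 0 and Igfbp4 and Irs1 left of 0 in all 3 cohorts, with open points for the untreated KspCre cohort.

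The next comparisons asked what rapamycin and deletion of Tfeb do to the same genes. In Tsc2 KO mice rapamycin raised Igfbp4, Igf1r and Insr and lowered Igfbp5 and Igf1, so that 3 of 10 rose and 2 fell where 29.4% of all genes were called (15.4% higher, 14% lower). The same 5 genes moved in the same directions in DKO vehicle against Tsc2 KO vehicle mice, where 22% of genes were called (11.9% higher, 10% lower); both comparisons share the Tsc2 KO vehicle libraries, so their values are not independent. Once Tsc2 KO mice had rapamycin, edgeR called 0 of 10 members against rapamycin-treated controls (0.634% of genes called), with 4 of 10 at an unadjusted p under 0.05 (12.9% of genes) and 1, Irs2, called by DESeq2 (2.28% of genes). DKO vehicle mice likewise had 0 of 10 called against control vehicle mice (6.01% of genes), with 3 at an unadjusted p under 0.05 (23.4% of genes) and 2, Igfbp5 and Igf1r, called by DESeq2 (11.1% of genes). In control mice rapamycin gave 0 of 10 calls (0.0294% of genes), with 1 of 10 at an unadjusted p under 0.05 (11.3% of genes) and 0 by DESeq2 (0.52% of genes). By edgeR the response of Tsc2 KO mice differed from that of controls for the 5 genes named above (20.8% of all genes differed) and from that of DKO mice for 4 of them, all but Igf1r (6.95% of all genes). DESeq2 called Irs2 as well in the first contrast (0.84; adjusted p = 0.0482) and Igf1r in the second (0.64; adjusted p = 0.0294), where edgeR gave Igf1r 0.64 (adjusted p = 0.0675) and, without Tsc2 KO vehicle 1, 0.81 (adjusted p = 0.0180). In DKO mice rapamycin gave 0 of 10 calls (5.57% of genes), with 2 of 10 at an unadjusted p under 0.05 (21.3% of genes) and 1, Irs2, called by DESeq2 (9.55% of genes). Between DKO and Tsc2 KO mice that both had rapamycin, 0 of 10 were called (0.305% of genes), with 2 at an unadjusted p under 0.05 (10.6% of genes) and 1, again Irs2, by DESeq2 (1.73% of genes). Rapamycin and vehicle groups of Tsc2 KO mice did not overlap in FPKM for 5 of 10 members (39.7% of genes). For DKO against Tsc2 KO mice, both with vehicle, this was 5 of 10 as well (38.6% of genes).

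**Figure D3:**
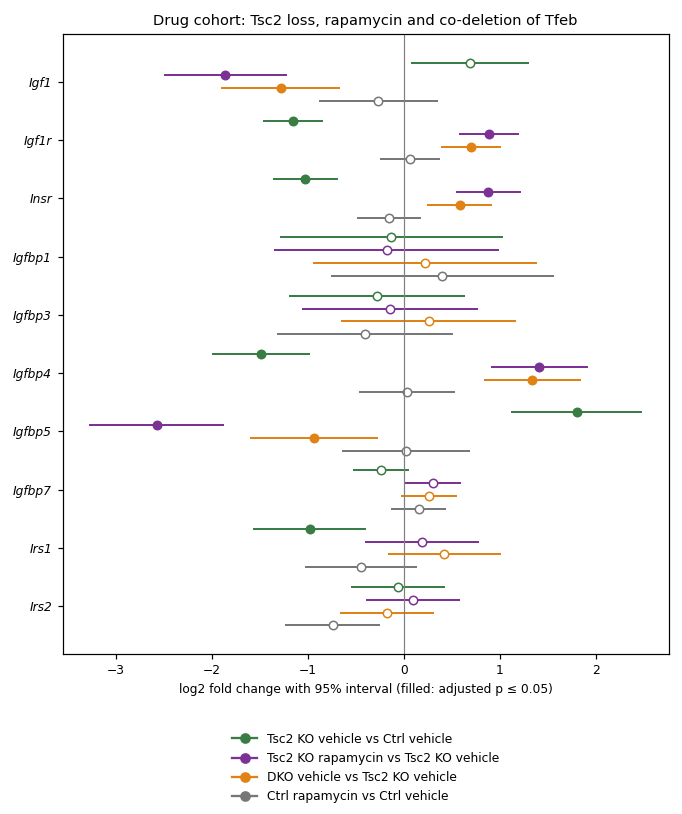
Log2 fold changes with 95% intervals in the drug cohort for Tsc2 loss (green), rapamycin in Tsc2 KO mice (purple), co-deletion of Tfeb (orange) and rapamycin in control mice (grey); filled points have an adjusted p of 0.05 or lower. For Igf1r, Insr and Igfbp4 the green points lie left of 0 and the purple and orange ones right of it, for Igfbp5 the reverse, and all grey points are open.

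Deletion of Tfeb was also compared in the CaggCreERT2 and untreated KspCre cohorts. In Tfeb KO against control kidneys edgeR called 0 of 10 in the CaggCreERT2 cohort (0.0184% of genes) and 0 of 10 in the KspCre cohort (0% of genes), with 1 of 10 at an unadjusted p under 0.05 in each, Irs2 and Irs1 respectively (8.01% and 8.56% of genes), and 0 by DESeq2 in both (0.624% and 0.0926% of genes). DKO against Tsc2 KO gave 0 of 10 in the CaggCreERT2 cohort (9.92% of genes), with 2 of 10, Igf1r and Irs1, at an unadjusted p under 0.05 (26.6% of genes) and both called by DESeq2 (15.1% of genes). In the KspCre cohort the same comparison gave 0 of 10 (0.144% of genes), with 1 of 10 at an unadjusted p under 0.05 (12.6% of genes) and 0 by DESeq2 (3.51% of genes). DKO kidneys of the CaggCreERT2 cohort differed from control in 4 of 10 genes (10.2% of genes, 6.85% higher and 3.35% lower), with Igfbp5 and Irs2 higher and Igfbp4 and Igf1r lower. The number of these calls fell to between 1 and 2 when any 1 library of the 2 groups was left out, with Irs2 called each time. Igfbp4 was not called with sex as a covariate (adjusted p = 0.0823). With the count table's names, which swap a Tfeb KO and a DKO library, the number was 0. The share of all genes called in those fits is not given, so these falls are not read as particular to the members. CaggCreERT2 DKO and control libraries did not overlap in FPKM for 6 of 10 members (35.0% of genes). For Tfeb KO and control libraries of that cohort it was 2 of 10 (13.8% of genes). In the KspCre cohort DKO against control gave 0 of 10 (3.1% of genes), with 3 at an unadjusted p under 0.05 (19.4% of genes) and 3, Igfbp3, Igfbp4 and Insr, called by DESeq2 (8.45% of genes). Without DKO 1, the library with high macrophage markers, edgeR again called 0 of 10 in both KspCre comparisons of DKO mice, and against control Igfbp3 had -0.96 (adjusted p = 0.300), Igfbp4 -0.82 (adjusted p = 0.357) and Insr -0.61 (adjusted p = 0.138). The effect of Tfeb deletion did not pass the test of a difference between mice with and without Tsc2 for any of the 10 genes in either cohort (1.4% and 0% of genes), with 2 of 10 and 1 of 10 at an unadjusted p under 0.05 (15.9% and 9.8% of genes) and 0 by DESeq2 in both (5.53% and 0.784% of genes).

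Igf1, the ligand (ENSMUSG00000020053, chr10:87858265-87937042, plus strand), was scarce in kidney and was lowest in rapamycin-treated Tsc2 KO mice. Its 3 libraries there had 0.947, 1.28 and 0.785 FPKM, against 2.57, 3.15 and 5.21 FPKM in Tsc2 KO vehicle mice. Every rapamycin library lay below every vehicle library, and the log2 fold change of -1.86 (95% interval -2.49 to -1.23) had an adjusted p of 0.000226. DKO vehicle mice, with 0.951, 1.72 and 1.83 FPKM, also lay wholly below the Tsc2 KO vehicle mice, by a log2 fold change of -1.28 (adjusted p = 0.00456). Without the 3 libraries that held adrenal transcripts this second difference was -1.19 (adjusted p = 0.0765), from 1 DKO and 2 Tsc2 KO vehicle mice; in this and the other such values of DKO vehicle mice the lone mouse is assumed to vary like the other groups. Controls had 2.18, 2.66 and 1.97 FPKM with vehicle and 2.31, 1.51 and 1.83 with rapamycin, a log2 fold change of -0.27 (-0.87 to 0.34). The response to rapamycin was lower by 1.59 on the log2 scale in Tsc2 KO than in control mice (adjusted p = 0.0122), taken as the difference of the 2 fold changes. Tsc2 KO against control with vehicle gave 0.69 (0.08 to 1.29; adjusted p = 0.0688), with an overlap of 1 library each way, and it was 0.88 without Tsc2 KO vehicle 1 (adjusted p = 0.0310) and 0.35 without Tsc2 KO vehicle 3 (adjusted p = 0.364). Outside the drug cohort Igf1 had 3.01 to 5.86 FPKM in CaggCreERT2 Tsc2 KO mice and 3.95 to 6.09 in their controls. In the untreated KspCre mice it had 1.97 to 2.69 against 1.64 to 3.36 FPKM, and the groups overlapped in both cohorts.

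The receptors moved together in the drug cohort. Igf1r, the IGF1 receptor (ENSMUSG00000005533, chr7:67952827-68233668, plus strand), had 13.0, 14.3 and 14.6 FPKM in control vehicle and 7.66, 5.05 and 6.07 FPKM in Tsc2 KO vehicle mice. It rose to 10.7, 12.8 and 11.1 FPKM with rapamycin and was at 10.2, 10.5 and 9.82 FPKM in DKO vehicle mice. None of these groups overlapped the Tsc2 KO vehicle group. The log2 fold changes were -1.16 (-1.46 to -0.85; adjusted p = 1.29e-05) for loss of Tsc2, 0.88 (0.58 to 1.19; adjusted p = 0.000246) for rapamycin and 0.70 (0.40 to 1.00; adjusted p = 0.00221) for co-deletion of Tfeb. The response to rapamycin differed from that in controls by 0.82 (adjusted p = 0.00929), where controls with rapamycin had 11.96, 15.3 and 16.5 FPKM. All 4 of these calls remained under every alternative run, the 3 libraries with adrenal transcripts left out included, which leaves the DKO vehicle group at 1 mouse. In the untreated KspCre mice Igf1r had 6.66 to 9.64 FPKM in Tsc2 KO and 8.74 to 12.7 in control mice, overlapping and not called. With 1 library left out that log2 fold change ran from -0.61 to -0.26 (adjusted p = 0.120 to 0.545). In the CaggCreERT2 cohort Igf1r showed no drop like that of the vehicle-treated mice. It had 10.6, 8.77 and 10.4 FPKM in Tsc2 KO and 10.2, 11.8 and 9.66 FPKM in control mice, a log2 fold change of -0.03 (-0.26 to 0.20). There the lowest levels were those of the DKO mice, with 8.19, 7.49 and 8.04 FPKM, a log2 fold change of -0.38 against control (adjusted p = 0.0380). That call was lost without the filter on low counts (adjusted p = 0.0686), with the replicate number as a block (0.0715), with the count table's names (0.490) and in 5 of the 6 fits that left out 1 library, all but that without control 3 (0.0812 to 0.158).

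Insr, the insulin receptor (ENSMUSG00000005534, chr8:3122061-3279617, minus strand), followed the same course. It had 9.72, 11.5 and 11.9 FPKM in control vehicle, 6.32, 4.76 and 5.18 in Tsc2 KO vehicle, 8.15, 13.0 and 8.69 in Tsc2 KO rapamycin and 7.77, 8.40 and 8.21 in DKO vehicle mice. Tsc2 KO vehicle mice thus lay below all mice of the other 3 groups. The log2 fold change was -1.03 (-1.36 to -0.70; adjusted p = 7.93e-05) for loss of Tsc2 and 0.88 (0.55 to 1.21; adjusted p = 0.000492) for rapamycin. For co-deletion of Tfeb it was 0.58 (0.26 to 0.91; adjusted p = 0.0126), and without Tsc2 KO vehicle 2 it was 0.49 with an adjusted p of 0.0662. Without the 3 libraries with adrenal transcripts, and so with 1 DKO vehicle mouse, it was 0.73 (adjusted p = 0.0722). The response of Insr to rapamycin exceeded that in controls, which had 9.11, 10.7 and 9.96 FPKM with the drug, by 1.04 (adjusted p = 0.00351). In the untreated KspCre mice Insr had 5.05, 5.21 and 6.48 FPKM in Tsc2 KO and 8.57, 7.05 and 7.48 in controls, without overlap, yet the log2 fold change of -0.47 (-0.81 to -0.13) had an adjusted p of 0.0677. In the CaggCreERT2 cohort Tsc2 KO (5.90 to 7.02 FPKM) and control (6.61 to 8.85) overlapped. DKO mice there, at 5.06 to 6.16 FPKM, lay wholly below control, without a call by edgeR as designed. Insr was called lower in them without the filter on low counts (-0.47; adjusted p = 0.0206) and by DESeq2 (adjusted p = 0.0337). The same held with only the groups compared (adjusted p = 0.0233) and with sex as a covariate (-0.54; adjusted p = 0.0450). With 1 library left out it was not called (adjusted p = 0.0510 to 0.243). Across the libraries of a cohort the log2 levels of Igf1r and Insr had a Pearson r of 0.79, 0.86 and 0.92 in the CaggCreERT2, KspCre and drug cohorts, over 12, 12 and 18 libraries that differ in genotype, depth and cell makeup.

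In the drug cohort Igfbp4 and Igfbp5 were the binding proteins with calls, in opposite directions. Igfbp4 (ENSMUSG00000017493, chr11:99041244-99054392, plus strand) encodes a binding protein that holds back IGF action until it is cut by the protease Pappa. In the drug cohort it had 270, 239 and 259 FPKM in control vehicle and 81.8, 80.1 and 111 FPKM in Tsc2 KO vehicle mice. With rapamycin the Tsc2 KO mice had 272, 183 and 270 FPKM, and the DKO vehicle mice had 287, 153 and 250 FPKM. Rapamycin-treated controls and DKO mice had 253, 308 and 223 and 309, 227 and 205 FPKM, so that the Tsc2 KO vehicle group stood alone below all 15 other libraries. The log2 fold changes were -1.49 (-1.99 to -0.99; adjusted p = 0.000119) for loss of Tsc2, 1.41 (0.91 to 1.91; adjusted p = 0.000307) for rapamycin and 1.34 (0.84 to 1.83; adjusted p = 0.000721) for co-deletion of Tfeb. Each of these calls remained under every alternative run. The response to rapamycin differed from that in controls by 1.38 (adjusted p = 0.00758).

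Igfbp4 was also lower without Tsc2 in the CaggCreERT2 cohort, at 88.8, 135 and 177 FPKM against 299, 283 and 228 in controls. The groups did not overlap, and the log2 fold change was -0.95 (-1.38 to -0.53; adjusted p = 0.00330). There the DKO mice had 161, 172 and 156 FPKM, a log2 fold change of -0.69 against control (adjusted p = 0.0420) and of 0.27 (-0.15 to 0.69) against Tsc2 KO. The first of these was -0.67 with sex as a covariate (adjusted p = 0.0823), and leaving out any 1 of its 6 libraries ended the call, with adjusted p of 0.0511 to 0.148. In the untreated KspCre mice Tsc2 KO had 156, 136 and 191 FPKM and control 392, 328 and 191, with a log2 fold change of -0.92 (-1.63 to -0.20; adjusted p = 0.0871). Control 3 alone lay near the Tsc2 KO mice there, and without it the fold change was -1.15 with an adjusted p of 0.0467. DKO mice of that cohort, with 134, 229 and 114 FPKM, had -0.93 against control (adjusted p = 0.145).

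Igfbp5 (ENSMUSG00000026185, chr1:72857932-72874884, minus strand), a binding protein that also attaches to extracellular matrix, had the largest fold changes of the 10 genes for loss of Tsc2 and for rapamycin in Tsc2 KO mice. In the drug cohort it had 62.8, 132 and 82.7 FPKM in control vehicle, 207, 280 and 477 in Tsc2 KO vehicle and 57.6, 48.4 and 55.9 in Tsc2 KO rapamycin mice. All vehicle-treated Tsc2 KO mice lay above, and all rapamycin-treated ones below, the 3 control vehicle mice. The log2 fold change was 1.80 (1.13 to 2.47; adjusted p = 0.000322) for loss of Tsc2 and -2.57 (-3.27 to -1.88; adjusted p = 2.85e-05) for rapamycin in Tsc2 KO mice, a level 5.95-fold lower. Rapamycin left the controls at 76.6, 70.6 and 134 FPKM, a log2 fold change of 0.02 (-0.63 to 0.68), and the difference between the responses was -2.60 (adjusted p = 0.000810). Those 3 calls remained under every alternative run. Against rapamycin-treated controls the treated Tsc2 KO mice were lower without overlap, at -0.80 (-1.46 to -0.14), but the adjusted p was 0.295. DKO mice had 188, 168 and 150 FPKM with vehicle and 91.7, 84.9 and 120 with rapamycin. Co-deletion of Tfeb thus gave -0.93 (-1.59 to -0.27; adjusted p = 0.0415). This call was lost with the replicate number as a block (-0.86; adjusted p = 0.0520) and with only the groups compared in the fit (-0.95; adjusted p = 0.0756). Leaving out 1 library ended that call for 5 of the 6 libraries, all but Tsc2 KO vehicle 1, with the smallest value without Tsc2 KO vehicle 3, at -0.54 (adjusted p = 0.230). Without the 3 libraries with adrenal transcripts, which leaves 1 DKO vehicle mouse, it was -1.33 (adjusted p = 0.110).

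In the CaggCreERT2 mice Igfbp5 had 212, 503 and 203 FPKM in Tsc2 KO, 365, 295 and 227 in DKO and 99.9, 132 and 105 in control kidneys. Both mutant groups lay above the controls, by a log2 fold change of 1.51 (0.70 to 2.31; adjusted p = 0.00965) and 1.44 (0.63 to 2.24; adjusted p = 0.0280). With 1 library left out the first value ran from 0.95 to 1.74 and stayed called (adjusted p = 0.0046 to 0.042). With the library names of the count table the first value was 1.51 with an adjusted p of 0.0837, and the second was 1.03 (adjusted p = 0.588). The second was also lost in 5 of the 6 fits that left out 1 library, all but that without DKO 3 (adjusted p = 0.0667 to 0.112). The calls of Igfbp4, Irs1 and Irs2 for loss of Tsc2 remained with those names and with sex as a covariate. DKO against Tsc2 KO gave -0.07 (-0.86 to 0.72) there. In the untreated KspCre mice Tsc2 KO had 245, 232 and 327 FPKM and control 66.1, 79.4 and 187, without overlap, and the log2 fold change of 1.27 (0.11 to 2.43) had an adjusted p of 0.145. The 7 fibroblast markers summed to 29.8 to 85.0 FPKM in Tsc2 KO vehicle, 20.9 to 46.1 in control vehicle and 21.5 to 40.0 in Tsc2 KO rapamycin mice, with 3 of 7 higher in the first against the second group and no marker at 0, and their part in the result was not tested. In the CaggCreERT2 mice the 4 smooth muscle markers summed to 62.0 to 147 FPKM in Tsc2 KO and 29.9 to 38.2 in control kidneys. DKO kidneys had 39.1 to 55.5 FPKM. Of these 4, 1 was called higher in Tsc2 KO than in control. Fibroblast sums overlapped there, at 111 to 302 against 119 to 227 FPKM. Tsc2 KO 2, with 503 FPKM of Igfbp5, had the highest sums of both lists among the 3 Tsc2 KO mice. The part of these markers was not tested.

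Igfbp7, Igfbp3 and Igfbp1 gave no call by edgeR in the comparisons as designed, with the filter on low counts and all groups of a cohort in the fit. Other settings called some of them: without the filter Igfbp1 was called in CaggCreERT2 Tsc2 KO and DKO against control (adjusted p = 0.00130 and 0.0262) and Igfbp3 in KspCre DKO against control (adjusted p = 0.0448), and DESeq2 called Igfbp1 in CaggCreERT2 Tsc2 KO against control (adjusted p = 0.0425) and Igfbp3 in KspCre DKO against control (adjusted p = 0.0203). Igfbp7 was called for rapamycin in Tsc2 KO mice without Tsc2 KO rapamycin 2 (0.42; adjusted p = 0.0288). Igfbp7 (ENSMUSG00000036256, chr5:77349240-77408041, minus strand), which binds IGFs weakly and is made by vessels, was the most abundant of the 10 in all 14 groups. Its log2 fold change for loss of Tsc2 was -0.12 (-0.59 to 0.35), -0.20 (-0.54 to 0.14) and -0.24 (-0.52 to 0.04) in the CaggCreERT2, KspCre and vehicle-treated cohorts. Those intervals hold no change larger than 1 on the log2 scale in either direction. Igfbp3 (ENSMUSG00000020427, chr11:7206086-7213923, minus strand), the main IGF carrier of blood, had 29.4, 48.7 and 58.8 FPKM in CaggCreERT2 Tsc2 KO against 68.9, 80.5 and 66.8 in control kidneys. In the KspCre mice it had 57.0, 34.6 and 41.6 against 73.1, 94.0 and 63.9 FPKM. Neither pair of groups overlapped, and the log2 fold changes of -0.60 (-1.23 to 0.03) and -0.80 (-1.55 to -0.04) had adjusted p of 0.140 and 0.158. The first was called without the filter on low counts (adjusted p = 0.0105), and the second with only the groups compared in the fit (-0.80; adjusted p = 0.0394). The 8 endothelial markers summed to 42.2 to 61.6 FPKM in these KspCre Tsc2 KO and 79.7 to 104 in the control mice, with 6 of 8 lower and none at 0, and to 65.9 to 114 against 108 to 126 FPKM in the CaggCreERT2 mice, and their part was not tested. In the vehicle-treated mice the groups overlapped, with 33.5 to 68.3 FPKM in Tsc2 KO and 34.9 to 70.7 in control mice, where the endothelial markers summed to 41.2 to 47.6 against 68.2 to 80.5 FPKM, with 4 of 8 lower.

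Igfbp1 (ENSMUSG00000020429, chr11:7197782-7202546, plus strand), a binding protein whose transcription insulin suppresses, lies 3539 bases from Igfbp3 and was the least steady of the 10. In Tsc2 KO vehicle mice it had 48.7, 5.52 and 10.7 FPKM, whereas control vehicle mice had 22.8, 16.3 and 31.6 FPKM. The first of these Tsc2 KO libraries is one of those with adrenal transcripts. With all libraries the log2 fold change was -0.13 (-1.28 to 1.03; adjusted p = 0.876). Without Tsc2 KO vehicle 1 it was -1.54 with an adjusted p of 0.00645, so a single library decided that value. Rapamycin in Tsc2 KO mice, with 29.1, 15.3 and 12.5 FPKM, gave -0.18 (-1.34 to 0.98), and 1.24 without that library (adjusted p = 0.0285). DKO vehicle mice, 2 of which had adrenal transcripts as well, had 31.2, 20.1 and 24.1 FPKM, a log2 fold change against Tsc2 KO vehicle of 0.22 (adjusted p = 0.812), which was 1.63 without Tsc2 KO vehicle 1 (adjusted p = 0.00879). In the CaggCreERT2 mice Tsc2 KO had 8.81, 16.5 and 25.1 FPKM and control 4.89, 7.83 and 13.4, overlapping, at 1.00 (0.10 to 1.90; adjusted p = 0.0908). That value was called without a filter on low counts (adjusted p = 0.0013), without control 3 (1.46; adjusted p = 0.0376) and without Tsc2 KO 1 (1.31; adjusted p = 0.0401).

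The adaptors behaved differently from each other. Irs1 (ENSMUSG00000055980, chr1:82233101-82291416, minus strand), which couples both receptors to PI3K, was the scarcest of the 10 in most groups. It had 0.684, 0.709 and 0.698 FPKM in CaggCreERT2 Tsc2 KO kidneys against 1.53, 2.07 and 1.41 in controls. DKO kidneys of that cohort, with 1.24, 1.06 and 1.31 FPKM, lay between these groups without touching either. The log2 fold change was -1.20 (-1.70 to -0.69; adjusted p = 0.00241) for loss of Tsc2 and 0.77 (0.26 to 1.27; adjusted p = 0.0581) for DKO against Tsc2 KO. In the drug cohort Irs1 had 0.664, 1.36 and 1.21 FPKM in Tsc2 KO vehicle and 2.55, 1.95 and 1.89 in control vehicle mice, apart from each other, a log2 fold change of -0.98 (-1.56 to -0.40; adjusted p = 0.00986). Rapamycin did not move it past the threshold in Tsc2 KO mice, with 1.33, 1.56 and 0.788 FPKM and a log2 fold change of 0.19 (-0.39 to 0.77). In the untreated KspCre mice Tsc2 KO had 0.545, 0.854 and 0.848 FPKM and control 1.95, 0.909 and 1.19, at -0.85 (-1.56 to -0.14; adjusted p = 0.109). Of the Irs1 exon bases, 30.9% are shared with Gm9747 on the opposite strand, and the libraries carry no strand information, so reads of these 2 genes cannot be told apart there.

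Irs2 (ENSMUSG00000038894, chr8:10984681-11008458, minus strand), the adaptor that FoxO factors induce in fasting, rose with loss of Tsc2 in the CaggCreERT2 mice. It had 7.21, 8.33 and 8.74 FPKM in Tsc2 KO against 3.56, 4.84 and 4.10 in control kidneys, a log2 fold change of 1.02 (0.65 to 1.38; adjusted p = 0.000828). DKO kidneys had 5.97, 7.15 and 8.97 FPKM, above the controls by 0.86 (0.49 to 1.22; adjusted p = 0.00639), and Tfeb KO kidneys 7.03, 5.12 and 5.81. Tfeb KO kidneys lay wholly above the controls too, but at 0.55 (0.19 to 0.91) the adjusted p was 0.428. In the KspCre cohorts Irs2 was not called for loss of Tsc2, and the groups overlapped. It had 7.25 to 13.1 against 4.80 to 11.4 FPKM untreated and 10.8 to 13.3 against 10.6 to 17.4 with vehicle. With rapamycin it had 6.72, 8.50 and 8.09 FPKM in control and 8.03, 5.70 and 5.83 in DKO mice, below the 11.0, 10.6 and 17.4 and the 11.3, 9.13 and 12.7 of the respective vehicle groups. The log2 fold changes of -0.74 (-1.22 to -0.26) and -0.76 (-1.24 to -0.28) had adjusted p of 0.370 and 0.0619. Tsc2 KO mice with rapamycin stayed at 10.4, 18.1 and 11.3 FPKM, and DKO against Tsc2 KO, both with rapamycin, gave -1.03 (-1.52 to -0.55; adjusted p = 0.0719), a value that DESeq2 called with an adjusted p of 0.00239.

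Of 47 other genes of the pathway, taken from 8 lists by role, 43 were tested in the CaggCreERT2, 43 in the KspCre and 42 in the drug cohort. Loss of Tsc2 raised 15 and lowered 6 of them in the CaggCreERT2 cohort, raised 5 and lowered 5 in the KspCre cohort, and raised 14 and lowered 9 in the vehicle-treated cohort. The called genes were 48.8%, 23.3% and 54.8% of those tested, beside the 29%, 13.8% and 38.3% of all genes given above, and the lists are not an independent choice. Their median log2 fold change was 0.14, -0.073 and -0.012, beside 0.0018, -0.013 and 0.0091 for all genes in the same order. Called in the same direction in at least 2 of the 3 cohorts were 17 of the 42 genes tested in at least 2 (40.5%), beside 23.1% of all genes so tested, and the 12 with the largest mean change are named here. Trib3, a pseudokinase that binds Akt, had the largest, with log2 fold changes of 3.83, 2.02 and 3.70 in the 3 cohorts in that order, all called. Its levels were low, at 0.274 to 0.519 FPKM in control vehicle and 3.69 to 7.23 in Tsc2 KO vehicle mice. Pik3ip1, an inhibitor of PI3K, rose by 1.39, 1.96 and 2.63, and Pik3r3, a regulatory PI3K subunit, by 0.75, 1.66 and 1.93. Grb10, an adaptor that restrains both receptors, rose by 1.06, 0.61 and 0.69.

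Among the receptors, Insrr, the insulin receptor-related receptor, fell by 1.74, 1.40 and 3.15 on the log2 scale, all called. Its level was 0.451 to 1.16 FPKM in Tsc2 KO vehicle, 6.31 to 9.28 in control vehicle and 7.07 to 10.3 in Tsc2 KO rapamycin mice. Igf2r, which carries IGF2 and lysosomal enzymes to lysosomes, rose by 0.97 and 0.89 in the CaggCreERT2 and KspCre cohorts, while the vehicle-treated mice gave 0.24 (-0.06 to 0.55; adjusted p = 0.189), not called. Ghr, the growth hormone receptor, fell by 0.83, 1.52 and 2.23 in the 3 cohorts and had 15.7 to 17.8 FPKM in Tsc2 KO vehicle against 74.9 to 84.0 in control vehicle mice. Foxo1, a transcription factor that Akt inhibits, fell by 0.67, 1.01 and 1.38. The feedback inhibitors Socs3 (1.81 and 3.24) and Socs2 (1.06 and 1.02), the Igfbp4 protease Pappa (1.33 and 0.80) and the kinase Akt1 (0.58 and 0.93) were called higher in the CaggCreERT2 and vehicle-treated cohorts. In the KspCre cohort these 4 had values of 1.90, -0.77, 0.25 and 0.29 in the same order, with no call. Socs3 was scarce as well, at 0.302 to 0.789 FPKM in control vehicle and 3.97 to 6.80 in Tsc2 KO vehicle mice. Rapamycin in Tsc2 KO mice raised 7 and lowered 11 of the 42 genes (15.4% and 14% of all genes), with Insrr, Ghr and Foxo1 among those raised and Trib3, Socs3, Pik3ip1 and Pik3r3 among those lowered. Like Ghr and Insrr, 5 of 6, 3 of 6 and 4 of 6 proximal tubule markers fell with loss of Tsc2 in the 3 cohorts. In KspCre DKO against Tsc2 KO mice Insrr was called higher, while 0 of these 6 markers were called. Markers of podocytes and of other tubule segments fell with loss of Tsc2 too, as given above. The part of cell makeup in these values was not tested.

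**Figure D4:**
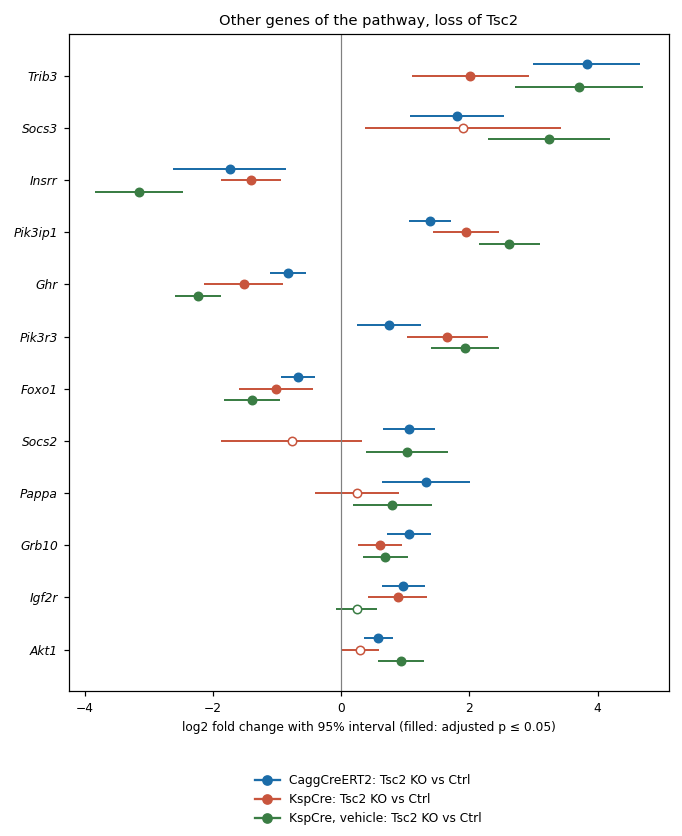
Log2 fold change with 95% interval in Tsc2 KO against control kidneys for the 12 other pathway genes named by the rule, in 3 cohorts; filled points have an adjusted p of 0.05 or lower. Trib3, Pik3ip1, Pik3r3 and Grb10 lie right of 0 and Insrr, Ghr and Foxo1 left of 0 with filled points in all 3 cohorts.

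The genes whose log2(FPKM + 1) followed each member most closely were taken from 11844 genes with a mean of at least 1 FPKM in each cohort, by the mean Pearson r over the 3 cohorts. Igfbp4 had the closest, Slc51a (mean r 0.923), Ak4 (0.920) and Sypl2 (0.917). For Igf1r they were Chp1 (0.875), Insr (0.856) and Sucnr1 (0.847), and for Insr they were Ldlrad3 (0.863), Igf1r (0.856) and Dhtkd1 (0.850). Igfbp5 went with Mark1 (0.879), Ampd3 (0.876) and Unc5b (0.864), and Igfbp3 with Fbln5 (0.867), Epas1 (0.803) and Ogn (0.794). Irs1 went with Ptgr2 (0.818), Acss3 (0.810) and Gm45884 (0.793), and Irs2 with Ipmk (0.750), Rnmt (0.723) and Evi5 (0.717). Igf1 (Lpcat1, 0.734), Igfbp7 (Ccdc181, 0.734) and Igfbp1 (Erbb3, 0.612) had looser partners. These values describe libraries that share genotype, depth and cell makeup, and carry no test.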

How the data were processed

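Whole-kidney poly-A RNA of 42 mice was measured, 3 per group. The authors deposited per cohort a table of raw counts per gene and a table of FPKM, scaled by gene length and a library size. The submitters' processing notes name STAR 2.6.1d, HISAT2 2.0.5, featureCounts 1.5.0-p3, DESeq2 1.20.0 and mm10, without roles, and the libraries are non-directional. Gene coordinates are those of the tables and equal GENCODE M21 for the 10 members. Count and FPKM columns were joined by their constant ratio; 4 CaggCreERT2 libraries bear conflicting names, and the FPKM table's were used.

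Counts were tested in R 4.3.3 with edgeR 4.0.16 (filterByExpr with the groups, TMM, glmQLFit and glmQLFTest, all groups of a cohort in a fit, no covariate), leaving 16348, 16631 and 17027 genes in the CaggCreERT2, KspCre and drug cohorts. P-values were adjusted by Benjamini-Hochberg over all tested genes of a comparison, and called at 0.05 or lower; differences between responses were contrasts of the same fit. Alternatives were RLE scaling, no filter, DESeq2 1.42.0, only the groups compared, a mean FPKM of at least 5, the replicate number as a block, sex as a covariate (CaggCreERT2), the count table's names and leaving out each library; leaving out 3 libraries with adrenal transcripts was chosen after seeing the data. Other pathway genes were named when called in the same direction for loss of Tsc2 in at least 2 cohorts, at most 12 by mean change, and similar genes as the 3 with the highest mean r per member. The members and lists were chosen with earlier results of these data known.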

Additional observations from a re-analysis of the deposited data

Results flagged for a closer look

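Responses to rapamycin that differed between genotypes of the drug cohort, by the contrast of fold changes in edgeR's quasi-likelihood test, are listed here for a closer look. Against controls, the response of Tsc2 KO mice differed for Igfbp4 by 1.38, Igfbp5 by -2.60, Igf1r by 0.82, Insr by 1.04 and Igf1 by -1.59 on the log2 scale, 5 of 10 members where 20.8% of genes were called. Against DKO mice it differed for Igfbp4 by 1.31 (adjusted p = 0.0240), Igfbp5 by -1.80 (adjusted p = 0.0212), Insr by 0.78 (adjusted p = 0.0396) and Igf1 by -1.88 (adjusted p = 0.0118), 4 of 10 members where 6.95% of genes were called. Both contrasts use the Tsc2 KO vehicle libraries. The Insr difference against DKO mice was not past the threshold in 9 of the 12 fits that left out 1 library (each of the 6 DKO libraries, Tsc2 KO rapamycin 2 and Tsc2 KO vehicle 2 and 3), with the replicate number as a block (adjusted p = 0.0571) or with only the groups compared in the fit (adjusted p = 0.0836), and without the 3 libraries with adrenal transcripts it was 0.93 (adjusted p = 0.0920), from 1 DKO vehicle mouse. Leaving out 1 of the 12 libraries in turn also ended the call against DKO mice for Igfbp4 in 8 fits and for Igfbp5 in 3, and for Igf1 in 0.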

How the results depend on the processing

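Of 32 values called among 200 pairs of a gene and a comparison, 16 were called under every alternative, and no called value changed sign. Uncalled values changed sign in 28 of 1380 alternative values and in 141 of 1440 with 1 library left out. An uncalled value became a call of the opposite sign for Igfbp1 under rapamycin in Tsc2 KO mice, with 1.24 without the 3 libraries with adrenal transcripts and a range of -0.65 to 1.24 with 1 library left out, the highest without Tsc2 KO vehicle 1. The number of the 10 members called moved by over 1.5 times as follows. Without a filter it was 1 for CaggCreERT2 DKO against Tsc2 KO, KspCre DKO against control, rapamycin in DKO and DKO against Tsc2 KO with rapamycin, each from 0. With DESeq2 it was 2, 2, 3, 2, 1, 1 and 1 for CaggCreERT2 DKO against Tsc2 KO, KspCre Tsc2 KO and DKO against control, DKO against control with vehicle, rapamycin in DKO, and Tsc2 KO against control and DKO against Tsc2 KO with rapamycin, each from 0. With only the groups compared it was 1, 3 and 1 for CaggCreERT2 DKO against Tsc2 KO, KspCre Tsc2 KO against control and rapamycin in DKO, each from 0, and 2 from 4 for the response to rapamycin in Tsc2 KO less that in DKO. With the count table's names it was 1 from 0 and 0 from 4 for CaggCreERT2 DKO against Tsc2 KO and against control. Samples that share a replicate number had correlations of -0.361 to 0.358. With 3 mice per group these show no pairing by number but cannot exclude one. With the replicate block the number of members called was 2 from 4 for CaggCreERT2 DKO against control. The block moved no other count by over 1.5 times. Without the 3 libraries with adrenal transcripts which leaves 1 DKO and 2 Tsc2 KO vehicle mice, it was 2 from 5 for DKO against Tsc2 KO with vehicle. With 1 library left out it ran from 0 to 1 for CaggCreERT2 DKO against Tsc2 KO, 1 to 2 for DKO against control, 0 to 1 for KspCre Tsc2 KO against control, 3 to 6 for DKO against Tsc2 KO with vehicle and 1 to 4 for the response in Tsc2 KO less that in DKO. The cause of these moves was not tested. Except for DESeq2, the share of all genes called under each of these settings is not given here. Those counts are therefore not set against that of all genes and show nothing particular to the 10 members. A minimum of 5 FPKM removes Irs1 in all comparisons by construction. It likewise removes Igf1 in the KspCre and drug cohorts and in CaggCreERT2 DKO against Tsc2 KO. With 3 mice per group the intervals of most uncalled members hold changes of 1.5 times or more, so those values do not show that levels were equal.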
